A study of Mus musculus with 3 samples.

Results

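Hand1, Hand2, Mab21l1 and Mab21l2 are 4 developmental regulator genes whose signals were followed across the intestine, the stomach and the esophagus of the mouse embryo. They were taken as every probe whose transcript accession maps to 1 of the 4 symbols, which gave 5 probes among the 41112 with a value on every array, and 4 genes among the 16998 that could be named. The genes had been picked with their values on these arrays in view, so their levels are a description and carry no test. Primordia of the 3 organs were dissected from embryos of the outbred ICR strain at E11.5, and the labels give no treatment and no engineered allele for any of them. Each organ was hybridised to 1 Cy3 array, so no difference has a replicate check. The number of embryos behind each array is not given in the sources used here, and the organ was read from title and tissue, because the extraction text names stomach for every sample.

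Hand1 and Hand2 encode basic helix-loop-helix transcription factors of the Twist family. They bind DNA as dimers, often with E proteins, and Id proteins hold E proteins away from such pairs. In the mouse both act in heart and lateral mesoderm. Hand1 is also known from trophoblast giant cells, and Hand2 from limb buds, sympathetic neurons and the neurons of the gut wall. Mab21l1 and Mab21l2 are vertebrate relatives of mab-21, a gene first described in C. elegans. Loss of Mab21l1 in the mouse disturbs lens development, and loss of Mab21l2 disturbs the eye and the ventral body wall. The arrays measured whole primordia, which hold mesenchyme, epithelium, nerve and vessel cells, so the cells that carry each transcript were not resolved and a mesenchymal source was not tested.

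Promoter windows from RefSeq (build GRCm38.p6) matched 2 of the 4 genes, Hand2 and Mab21l2. These genes are shown because their windows matched. Both were higher in intestine than in esophagus, while for intestine minus stomach Mab21l2 was at 5.96 and Hand2 at 0.19 log2 units. Each line holds the 250 bases before the transcript start, read 5′ to 3′ on the gene's strand, from chr8:57320733-57320982 on the plus strand for Hand2 and from chr3:86548284-86548533 on the minus strand for Mab21l2. Capitals mark matches on either strand. The motifs searched were the E-box with the letters CANNTG, a core read by GATA factors with the letters GATAA, the TATA box with the letters TATAAA and the CDX-type site with the letters TTTATNG.
Hand2: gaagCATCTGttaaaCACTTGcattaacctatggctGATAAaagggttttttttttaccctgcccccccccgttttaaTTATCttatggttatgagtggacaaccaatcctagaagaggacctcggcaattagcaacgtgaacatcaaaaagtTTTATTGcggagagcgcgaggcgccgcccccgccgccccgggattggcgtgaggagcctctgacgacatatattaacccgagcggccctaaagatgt
Mab21l2: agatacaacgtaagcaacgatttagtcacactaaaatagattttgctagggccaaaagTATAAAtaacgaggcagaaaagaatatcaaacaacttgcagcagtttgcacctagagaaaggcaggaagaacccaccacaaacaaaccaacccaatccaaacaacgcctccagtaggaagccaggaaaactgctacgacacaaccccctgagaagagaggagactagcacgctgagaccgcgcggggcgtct

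The Hand2 window held E-boxes beginning 246 and 235 bases before the start, GATA cores at 214 and 172 bases and a CDX-type site at 97 bases, and none of these overlapped. The Mab21l2 window held a TATA box at 192 bases and no match to the other letters. Among the 32851 windows of this length, 66.2% held an E-box, 22.6% a GATA core, 12.4% a TATA box and 9.81% a CDX-type site. The forkhead site with the letters TGTTTAC, searched in the same way, was in neither window and in 3.17% of all windows. The motifs were chosen after the sequences had been seen, and a match describes letters, not binding. In the same table the transcript start of Hand2os1, an antisense neighbour read in the opposite direction, lay 124 bases from that of Hand2, so that 223 bases of their promoter windows, which in that table run past the start, coincide. Hand2os1 was not analysed here.

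By the probe used for each gene, all 4 had their highest level in intestine and their lowest in esophagus. A level is the log2 ratio of a probe's processed signal to the array's own 75th percentile, a signal of 1023 in intestine, 334 in stomach and 393 in esophagus. Well above background were 74.0% of spots in intestine, 67.9% in stomach and 69.3% in esophagus. Probes with at least 8 spots on an array had a median SD of 0.082 to 0.103 log2 units among their spots. Different probes of 1 gene disagreed more, with a median SD of 0.31 log2 units for intestine minus stomach, 0.46 for intestine minus esophagus and 0.25 for stomach minus esophagus. These 3 values serve below as the spread against which a difference is read. They do not measure variation between embryos, dissections or hybridisations. In bulk tissue, fewer cells of a type and less RNA per cell cannot be told apart.

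For Hand1, intestine gave a processed signal of 6878 ± 688, stomach 39.7 ± 4.26 and esophagus 9.41 ± 2.14, where the error is the scanner software's estimate for the single spot. On the log2 scale these levels were 2.75 in intestine, −3.07 in stomach and −5.38 in esophagus. The esophagus spot was not well above background, and its signal was 1.34 times the lowest signal called above background on that array. Intestine alone thus carried a bright Hand1 signal, and stomach carried a dim but detected one. Between intestine and stomach Hand1 differed 56.6-fold, with intestine higher. Taken against the dim esophagus signal, Hand1 was at least 281-fold higher in intestine and at least 4.96-fold higher in stomach. After normexp background correction the bound for stomach minus esophagus was 0.70 log2 units, under the 4-fold mark. The stomach signal itself was 6.79 times the lowest signal called above background.

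Hand2, the partner of Hand1 in family and structure, was bright in both abdominal organs. Signals of 3431 ± 343 were read in intestine, 979 ± 97.9 in stomach and 330 ± 33.0 in esophagus, which after scaling gave levels of 1.75 in intestine, 1.55 in stomach and −0.26 in esophagus. A second Hand2 probe gave 0.92 in intestine, 0.92 in stomach and −1.05 in esophagus. Both probes put intestine and stomach together and esophagus below them. The difference between intestine and stomach was 0.19 log2 units by the probe used and −0.0036 by the other, inside the spread between probes. Stomach was 3.50-fold above esophagus by the probe used and 3.92-fold by the other. Intestine was 4.0-fold above esophagus by the probe used and 3.91-fold by the other, so Hand2 stands at the 4-fold mark rather than clearly past it.

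Mab21l2 followed the form of Hand1. Intestine gave a signal of 6392 ± 639, stomach 33.6 ± 3.61 and esophagus 15.3 ± 2.21, and the levels were 2.64 in intestine, −3.31 in stomach and −4.68 in esophagus. All 3 spots were well above background, although the stomach spot was only 5.75 times and the esophagus spot 2.18 times the lowest such signal on its array. Mab21l2 in intestine was 62.1-fold above stomach and 160-fold above esophagus, and in stomach it was 2.58-fold above esophagus.

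Mab21l1, its close paralog, was well above background on all 3 arrays but stood below each array's 75th percentile. Intestine gave 182 ± 18.3, stomach 33.7 ± 3.69 and esophagus 22.5 ± 2.94, and the levels were −2.49 in intestine, −3.31 in stomach and −4.12 in esophagus. Each step exceeded the spread between probes, at 0.82 log2 units for intestine minus stomach and 0.81 for stomach minus esophagus. A single probe read Mab21l1, at 5.76 times the lowest signal called above background in stomach and 3.21 times in esophagus. Mab21l1 in intestine was 3.11-fold above esophagus. After normexp background correction these differences were −0.096 for intestine minus stomach, 0.39 for stomach minus esophagus and 0.29 for intestine minus esophagus, so the first turned its sign. Its levels cannot be set against those of Mab21l2, since a different probe read each gene.

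**Figure D1:**
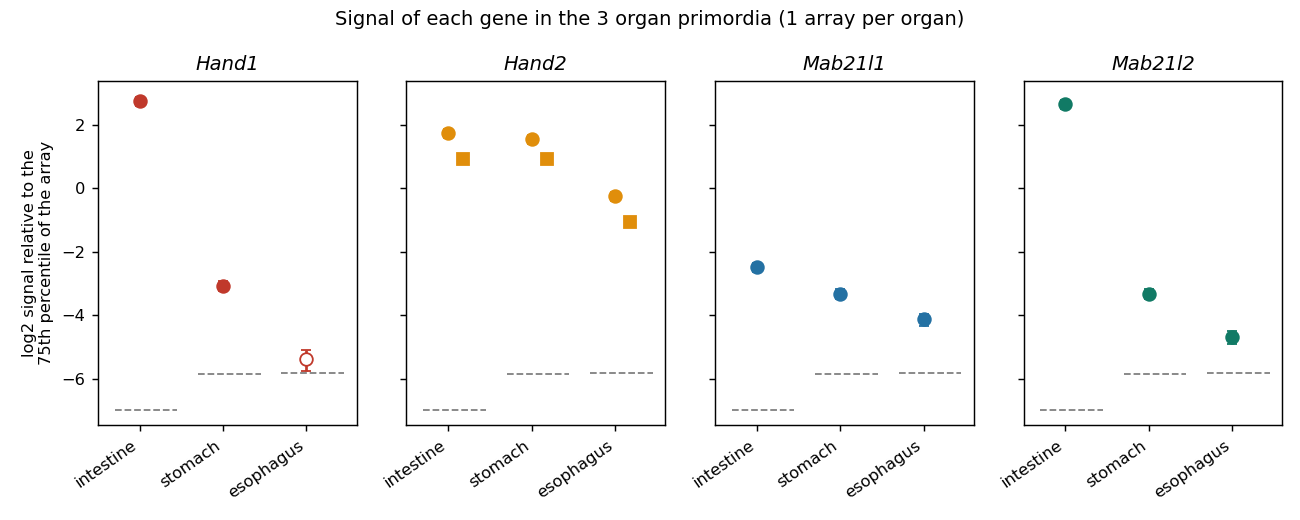
Level of each gene (y axis: log2 processed signal relative to the array's 75th percentile) in intestine, stomach and esophagus, with 1 array per organ and the scanner's spot error as bars. The open circle is not well above background, squares are the other Hand2 probe, and dashed lines are each array's lowest signal called above background; Hand1 and Mab21l2 drop between intestine and stomach, Hand2 between stomach and esophagus.

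In intestine against stomach, 2 of the 4 genes, Hand1 and Mab21l2, passed 4-fold towards intestine, as did 1.43% of the 13820 genes compared, and none of the 4 passed it towards stomach, as did 1.29%. Over all genes these were 198 higher and 178 lower in intestine, which became 228 and 131 under quantile normalization, 255 and 115 under median centring and 552 and 68 under spike-in centring. Since the genes were picked on these contrasts, nothing is read from that share. Among the 13273 genes measured on both arrays, Mab21l2 had the 4th largest difference towards intestine and Hand1 the 6th, whereas Mab21l1 stood at place 774 and Hand2 at place 4002. The median of the 4 differences was 3.32 log2 units, against −0.023 over all genes compared.

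In intestine against esophagus, 3 of the 4 genes passed 4-fold towards intestine, as did 1.82% of 13905 genes, with Hand2 at the mark itself, and none passed it towards esophagus, as did 3.85%. Over all genes these were 253 higher and 535 lower in intestine, which became 367 and 372 under quantile normalization, 455 and 296 under median centring and 990 and 199 under spike-in centring. Of the differences measured on both arrays, that of Mab21l2 was the 2nd largest towards intestine among 13100, while Hand2 stood at place 175 and Mab21l1 at place 270. Hand1, a lower bound, has no place. The median was 4.66 log2 units, against 0.13 over all genes.

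In stomach against esophagus, only Hand1 passed 4-fold towards stomach, as a bound and as did 0.684% of 13737 genes, and none of the 4 passed it towards esophagus, as did 1.58%. Over all genes these were 94 higher and 217 lower in stomach, which became 125 and 176 under median centring and 28 and 59 under normexp, where Hand1 no longer passed. Hand2 had the 90th largest difference towards stomach among the 12923 genes measured on both arrays, at 1.81 log2 units. Mab21l2 followed at 1.37 and Mab21l1 at 0.81. The median was 1.59 log2 units, against 0.15 over all genes. The comparisons share arrays, so the order of organs in each gene was not counted as separate support. That order, intestine above stomach above esophagus, was also held by 28.8% of the 14509 genes measured in at least 1 organ, and 0.965% of them passed 4-fold in intestine over both other organs, as Hand1 and Mab21l2 did. With stomach also above esophagus the share was 0.372%.

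**Figure D2:**
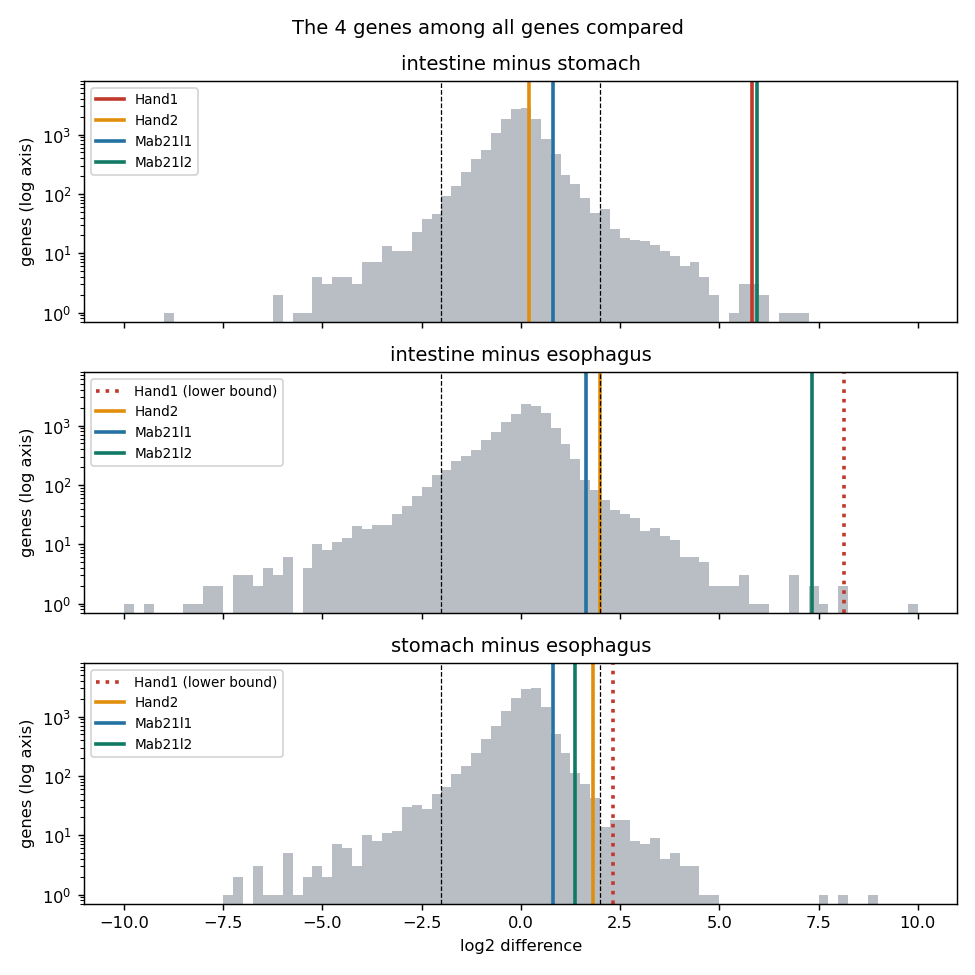
Log2 difference (x axis) of all genes compared, counted in bins of 0.25 (y axis, log scale), for each pair of organs, with coloured lines at the 4 genes and dashed lines at 4-fold. Hand1 and Mab21l2 lie in the far right tail of both intestine comparisons, and Hand2 leaves the centre in the comparisons with esophagus.

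Where along the gut each gene parted from its lowest level differed among the 4. The step between stomach and intestine made up 81.3% of the log2 range of Mab21l2 between esophagus and intestine and 71.6% of that of Hand1, whose range is a lower bound. It made up 50.2% for Mab21l1 and 9.73% for Hand2. The Hand pair was therefore split at the boundary of stomach and intestine, with Hand1 at 5.82 and Hand2 at 0.19 log2 units, and so was the Mab21l pair, with Mab21l2 at 5.96 and Mab21l1 at 0.82. The shares hold for the values as reported and change with the setting. Under normexp the step was 4.60 of a range of 5.30 for Hand1 and −0.096 beside a range of 0.29 for Mab21l1. Under spike-in centring it was 1.05 of 2.91 for Hand2.

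The normexp setting started from spot and local background medians in place of the processed signal, and added an offset. It gave 4.60 for Hand1 and 4.81 for Mab21l2 in intestine minus stomach, and 5.30 and 5.37 in intestine minus esophagus. Which of these changes moved the values was not tested. Centring on the spike-in controls added 0.85 log2 units to every intestine value relative to stomach, which puts Hand2 at 1.05 there.

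**Figure D3:**
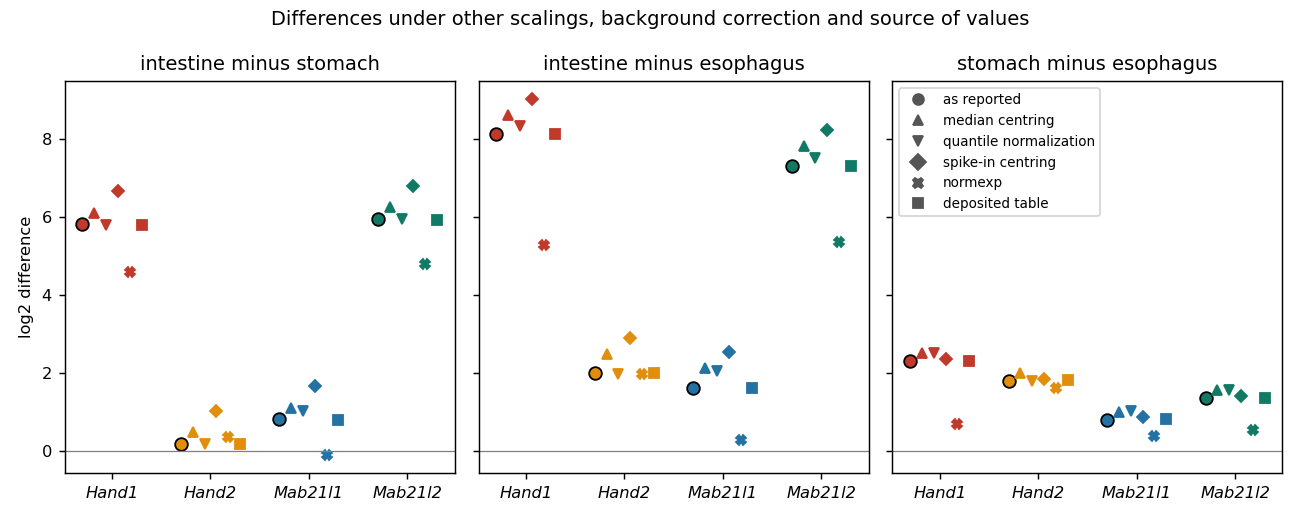
Log2 difference (y axis) of each gene for each pair of organs, as reported (outlined circles) and under other scalings, normexp background correction and the authors' deposited values. Hand1 and Mab21l2 stay above 4 log2 units in both intestine comparisons under all settings drawn, and Mab21l1 lies just below 0 in intestine minus stomach under normexp.

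The relatives of the Hand genes did not share a pattern. Of the 7 Twist family genes compared between intestine and stomach, 2 passed 2-fold towards intestine (4.96% of all genes) and 1 towards stomach (7.47%), against 5 and 0 under spike-in centring. The median was 0.57 log2 units. Ptf1a, a regulator of pancreas, was at a bound of 2.10 and Twist2, a regulator of dermal and bone precursors, at 1.04, while Msc, which acts in branchiomeric muscle, was at −1.68. Between intestine and esophagus 3 of 7 passed 2-fold towards intestine (8.74% of all genes) and 2 towards esophagus (12.0%). The median of −0.089 turned to 0.41 under median centring and 0.82 under spike-in centring. Tcf21, a regulator of visceral mesenchyme, stood at 1.95 and Tcf15, which acts in somites, at 1.65, while Twist1 stood at −2.68 and Msc at −2.93. Between stomach and esophagus 2 of 6 passed 2-fold towards stomach (4.14% of all genes) and 3 towards esophagus (5.71%), with Twist1 at −2.21 and Tcf21 at 1.16.

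The dimer partners of the Hand proteins varied less than Hand1. The E protein genes Tcf3, Tcf4 and Tcf12 were all within 2-fold in each pair of organs, with differences from −0.81 to 0.22 log2 units, although a second Tcf4 probe gave −1.09 for intestine minus stomach and −1.81 for intestine minus esophagus. The 4 Id genes, whose products block E proteins, were within 2-fold between intestine and esophagus. Id4 was the exception elsewhere, at −1.76 for intestine minus stomach and 1.12 for stomach minus esophagus. The E protein median was −0.50 for intestine minus stomach and −0.73 for intestine minus esophagus, and turned to 0.35 and 0.17 under spike-in centring. The Id median was −0.30 and −0.16 in the same comparisons, and turned to 0.55 and 0.74 under spike-in centring.

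By the probe used for each, 0 of the 3 other genes with a Mab21 domain passed 2-fold in any pair of organs. Under spike-in centring 2 of 3 did so for intestine minus esophagus. Of all genes, 4.14% to 8.74% passed it towards the first organ of a pair and 5.71% to 12.0% towards the second. A count of 0 of 3 is near these shares. The list median was −0.04 for intestine minus stomach and 0.12 for intestine minus esophagus, against 0.81 and 1.02 under spike-in centring. Mab21l3 stood at 0.08 for intestine minus stomach and 0.04 for stomach minus esophagus. Cgas, the sensor of cytosolic DNA, stood at −0.09 and −0.0075 in the same comparisons, and Mb21d2 at −0.04 and 0.34. A further Mb21d2 probe gave −1.04 for intestine minus stomach.

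BMP signals act upstream of Hand genes in several embryonic tissues. Of 21 BMP pathway genes, 5 passed 2-fold towards intestine (4.96% of all genes) and 5 towards stomach (7.47%). These became 8 and 0 under spike-in centring and 2 of 20 and 4 of 20 under normexp. The median was −0.055 log2 units, against 0.24 under median centring and 0.80 under spike-in centring. Among the ligands, Bmp4 was at 1.56 and Bmp5 at 1.18, Bmp2 was at a bound of 1.04 and Bmp7 was at −1.05. Grem1, a secreted BMP antagonist, stood at 1.07 in intestine minus stomach and 0.43 in intestine minus esophagus. The target genes Msx1 and Msx2 stood at −1.01 and −1.65 for intestine minus stomach. Among receptors Bmpr1a was at 0.15 and Bmpr1b at −1.56, and among the Smad transducers Smad1 was at −0.54, Smad5 at 0.23 and Smad9 at −1.38. Between stomach and esophagus 1 of 21 passed 2-fold towards stomach (4.14% of all genes), Msx1 at 1.38. Towards esophagus 2 passed it (5.71%), Bmpr2 at −1.04 and Bmp2 at a bound of −2.53.

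Endothelin signalling and Dlx genes lie upstream of Hand2 in the pharyngeal arches of the mouse. Of the 5 such genes compared, 0 passed 2-fold towards stomach against esophagus (4.14% of all genes), where Hand2 was 3.50-fold higher. Towards esophagus 2 passed it (5.71%). These were Edn1, the ligand, at −1.45 and Ednra, its receptor, at −1.11, and a second Ednra probe gave −2.20. Dlx5 was at 0.79 and Gsc at −0.70. The counts towards stomach and towards esophagus became 1 and 2 under quantile normalization. Under median centring and under normexp they were 0 and 1. Whether these genes had a part in the Hand2 values was not tested.

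Between stomach and esophagus, several markers of enteric and autonomic neural crest were, like Hand2, higher in stomach. Of 16 compared, 8 passed 2-fold towards stomach (4.14% of all genes) and 2 towards esophagus (5.71%), and the list median was 0.88 log2 units. Among the 8 were the transcription factor gene Phox2a (1.66), the receptor gene Ret (1.94), the neuronal genes Tubb3 (1.56), Elavl3 (1.63) and Elavl4 (1.54), and Dbh (1.92), a noradrenaline enzyme that depends on Hand2 in sympathetic neurons of the mouse. The receptor genes Ednrb (−1.03) and Gfra2 (a bound of −1.80) were lower. Between intestine and esophagus, where Hand2 was also higher, the list went both ways by the probe used for each gene. Of 16 compared, 4 passed 2-fold towards intestine (8.74% of all genes) and 5 towards esophagus (12.0%). Among the 5 were Erbb3 (−2.97), Gfra1 (−1.37) and Ednrb (−1.33). A second probe gave only −0.18 for Gfra1 and −0.0090 for Ednrb, while the Erbb3 probes ran from −2.97 to −2.16. The list median there was −0.21 (0.29 under median centring, 0.082 under quantile normalization and 0.70 under spike-in centring). The 16 marker probes summed to 15.1 in intestine, 21.4 in stomach and 18.3 in esophagus, in units of each array's 75th percentile. Between intestine and stomach, where Hand2 was near-level, 0 of 15 passed 2-fold towards intestine (4.96% of all genes) and 4 towards stomach (7.47%). Under spike-in centring these became 1 and 1. The median was −0.75 (0.10 under spike-in centring). Of the 16 markers, 15 were well above background in intestine, 15 in stomach and 16 in esophagus. Gfra2 was dim in intestine and stomach. Their part in the Hand2 values was not tested.

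Markers of heart, a tissue in which both Hand genes are active, went the other way. Of 14 heart genes, 13 passed 2-fold towards esophagus against intestine (12.0% of all genes) and 14 against stomach (5.71%). At 4-fold 12 passed against intestine (3.85%) and 12 against stomach (1.58%). Their levels summed to 8.24 in intestine, 7.80 in stomach and 141 in esophagus. Hand1 and Hand2 were thus lowest on the array on which Myl7 stood at 6.01 and Tnnt2 at 3.49 log2 units, both contractile genes of heart muscle.

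Liver markers were high on the intestine array. Of 14 liver genes, 12 passed 4-fold towards intestine against stomach (1.43% of all genes) and 12 against esophagus (1.82%), with Alb at 5.38 and 3.35 log2 units and Afp at 4.13 and 2.52. Towards esophagus 1 of 14 passed 4-fold (3.85%), Prox1 at −2.34, where another probe gave −1.14. Against stomach Prox1 was at −0.55 by the probe used and 0.39 by the other. The 14 levels summed to 96.2 in intestine, 10.8 in stomach and 12.4 in esophagus. All 14 were well above background in intestine, and 11 were in stomach and 12 in esophagus, with Ttr and Fga not so in both and Apob not so in stomach. Whether hepatic tissue contributed to the Hand1 and Mab21l2 signals of the intestine array was not tested. In stomach against esophagus, where Hand1, Mab21l2 and Hand2 were higher in stomach, 8 of 12 liver genes passed 2-fold towards esophagus (5.71% of all genes). Towards stomach 1 passed it (4.14%), Ambp at 2.20. Under normexp 2 of 12 passed towards esophagus.

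Of the 7 trophoblast markers with a probe, listed because of Hand1, 4 were well above background in every organ. Gcm1, Tpbpa and Eomes were not well above background in any organ, and Elf5 was at −2.75 in intestine minus stomach. Plac1 was at 1.60 in intestine minus stomach and 2.22 in intestine minus esophagus, Ascl2 at −0.63 and 0.86, and Tfap2c at −0.54 and −1.83. The 7 probes summed to 0.43 in intestine, 0.45 in stomach and 0.82 in esophagus.

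General mesenchymal genes differed less between intestine and stomach than Hand1 and Mab21l2. Between intestine and stomach 2 of 11 pan-mesenchymal genes passed 2-fold towards intestine (4.96% of all genes) and 2 towards stomach (7.47%). Their median was 0.10 log2 units. By the probe used for each, 0 of 9 smooth muscle genes passed 2-fold either way, with a median of 0.064. Other probes of Acta2 and Tagln reached 2.01 and 1.05 towards intestine, where the probes used gave −0.47 and 0.47. Under spike-in centring these counts became 5 towards intestine and 0 towards stomach for the pan-mesenchymal list and 4 and 0 for the smooth muscle list, whose median was then 0.91. The pan-mesenchymal markers Vim and Pdgfra stood at 0.18 and −0.56, although a second Pdgfra probe gave −2.24. Col1a1, Col3a1 and Fn1 stood at −0.23, 0.65 and −0.23, and their lowest probes gave −1.41, −1.09 and −1.69. Against esophagus 5 of 11 pan-mesenchymal genes were lower by 2-fold or more in intestine (12.0% of all genes) and 5 of 11 in stomach (5.71%). In both, 0 were higher to that extent (8.74% of all genes for intestine and 4.14% for stomach). Under spike-in centring 1 of 11 was lower and 2 were higher in intestine than in esophagus. The pan-mesenchymal median was then 0.95 for intestine minus stomach and 0.18 for intestine minus esophagus, where it was −0.72 as reported. The 11 genes summed to 196 in intestine, 231 in stomach and 376 in esophagus.

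Transcription factors of gut mesenchyme differed between organs in both directions. Nkx2-3, a homeobox gene of midgut and hindgut mesoderm, was at 3.80 for intestine minus stomach and 3.03 for stomach minus esophagus, and was the 1 gene of 14 that passed 2-fold towards intestine against stomach (4.96% of all genes). Towards stomach 7 of 14 passed it (7.47%). These counts became 4 and 5 under spike-in centring and 2 and 5 under median centring. Among the 7 were Barx1 (−8.83), Six2 (−5.13), Nkx2-5 (−3.95) and Isl1 (−2.77), which are regulators of stomach and pylorus. Foxf1 and Foxf2, forkhead genes of visceral mesenchyme along the whole gut, were at −0.95 and 0.56. Mesothelial genes were mixed between intestine and stomach, with 3 of 9 past 2-fold towards intestine (4.96% of all genes) and 2 towards stomach (7.47%). These became 6 and 2 under spike-in centring. Against esophagus 5 of 9 passed 2-fold towards intestine (8.74%), including Bnc1 (1.94) and Aldh1a2 (1.87). Podxl was 1 of the 5, at 1.19 by the probe used and −0.89 by another. Towards esophagus 1 passed it (12.0%), Tbx18 at a bound of −6.50. Under normexp 3 of 9 passed towards intestine and 1 towards esophagus.

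**Figure D4:**
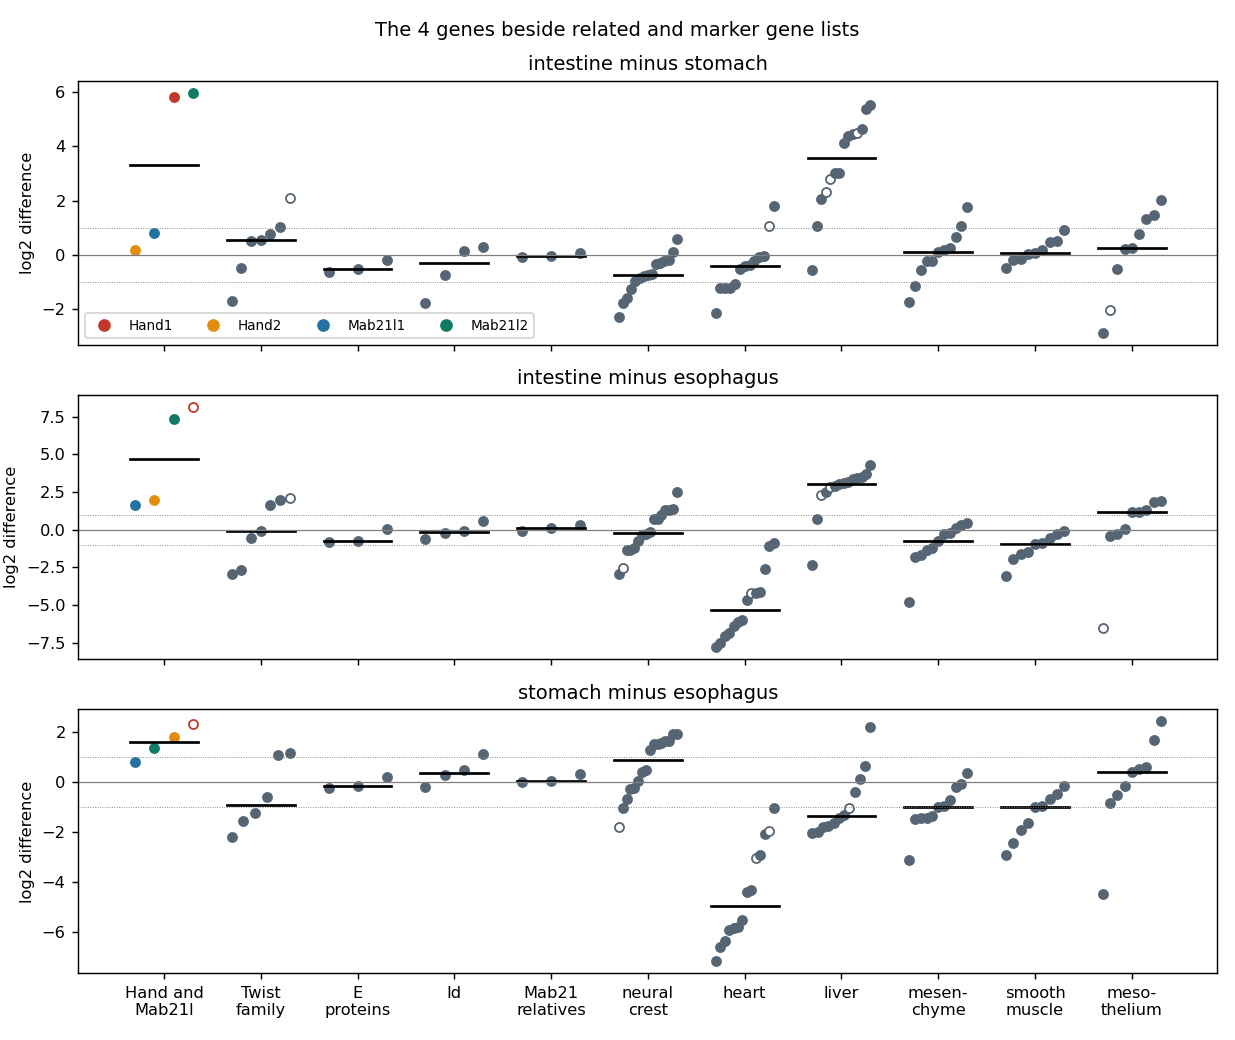
Log2 difference (y axis) of each gene in the Hand and Mab21l set and in related and marker gene lists (x axis), for each pair of organs, with bars at list medians, open circles for bounds and dotted lines at 2-fold. In intestine minus stomach the liver list and the pair Hand1 and Mab21l2 lie high while E proteins, Mab21 relatives, mesenchyme and smooth muscle have medians between −0.50 and 0.10 (0.35 to 0.95 under spike-in centring).

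Markers of each organ were set against its label. Cdx2, Isx, Vil1 and Fabp2 each passed 4-fold towards intestine against stomach, while Cdx1, also an intestine marker, was well above background in stomach only. Of the stomach markers, Barx1, Six2 and Gata4 were highest in stomach, Gata4 by only 0.42 log2 units over esophagus. Sox2, listed for both stomach and esophagus, stood at 0.57 in stomach and 1.04 in esophagus. Trp63, Pax9, Krt5 and Foxe1 were highest in esophagus.

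The genes most alike in organ pattern were ranked by the distance between log2 levels centred on each gene's mean over the 3 arrays, among 13890 named genes, after levels below a common floor had been raised to it. Nearest to Hand1 were Cdx2 (distance 0.62), Lgals2 (0.69), Mab21l2 (0.72), Isx (0.83) and Nkx2-3 (1.45). Nearest to Mab21l2 were Isx (0.20), Cdx2 (0.25), Lgals2 (0.64), Hand1 (0.72) and Hoxa11 (0.98). Cdx2 and Isx are homeobox genes of intestinal epithelium. Hand1, Cdx2, Isx and Lgals2 were not well above background in esophagus, and Hoxa11 was not so in stomach or esophagus. The esophagus levels of Cdx2, Isx and Lgals2 were raised to the floor, as were the stomach and esophagus levels of Hoxa11. The distances and order of these genes thus rest in part on that floor.

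Nearest to Hand2 were Etv4 (0.058), an ETS factor that responds to FGF and RET signals, Bnc1 (0.074), a zinc finger gene of mesothelium, Foxa3 (0.098), an endoderm factor, Rnase2a (0.11) and Pla2g1b (0.15). Mab21l1 lay nearest to Tmem199 (0.0045), Asgr2 (0.013), Qprt (0.018), Lsm3 (0.037) and Srpx2 (0.050). Of the 5 genes given for Hand2, 0 stayed among its nearest under normexp and 1 under quantile normalization, and of the 5 for Mab21l1, 0 stayed under either. With 3 arrays the distance describes likeness of 2 differences only. Between family members the distances were 4.81 for Hand1 and Hand2 and 4.44 for Mab21l1 and Mab21l2. Their place among 13890 genes depends on the gene ranked from. Hand2 was 397th from Hand1 and Mab21l1 was 428th from Mab21l2. In the other direction Hand1 was 13825th from Hand2 and Mab21l2 was 13822nd from Mab21l1.

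Both Mab21l genes lie inside the span of a larger gene in the RefSeq table, Mab21l1 inside Nbea and Mab21l2 inside Lrba on the opposite strand. Lrba, a BEACH-domain gene needed for vesicle traffic in immune cells, was at 2.41 for intestine minus stomach, 2.49 for intestine minus esophagus and 0.085 for stomach minus esophagus by its brightest probe. A second Lrba probe gave −1.29, −2.50 and −1.21 in the same comparisons, and a further one gave bounds of 0.82 and 0.75 in the intestine comparisons, so the probes of Lrba disagree in direction. The nearest named coding genes beside Mab21l2, Rps3a1 and Dclk2, were at −0.13 and 0.84 for intestine minus stomach. Nbea was not analysed here.

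Neighbours of the other genes gave mixed values. Sap30l, next to Hand1, was at −0.04 for intestine minus stomach where Hand1 was at 5.82. Fbxo8 and Scrg1, on either side of Hand2, were at 0.28 and −0.90 for stomach minus esophagus where Hand2 was at 1.81, and Scrg1 was at −4.09 for intestine minus stomach. Fbxo8 was highest in intestine and lowest in esophagus, as Hand2 was, at 1.16 for intestine minus stomach and 1.44 for intestine minus esophagus. Dclk1 and Tm4sf1 lie on either side of Mab21l1. Tm4sf1 was at 1.27 for intestine minus stomach and 0.68 for intestine minus esophagus, and Dclk1 was at −1.91 for intestine minus esophagus by its brightest probe and at 0.05 and 0.42 by others.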

How the data were processed

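One-colour Agilent arrays of 3 organs, 1 array each, were analysed. Per the file headers, spots were read with Agilent Feature Extraction 10.5.1.1, and the deposited intensity (processed signal) had local background subtracted and trends across the array corrected, with no scaling between arrays. The deposited 0 or 1 flags marked outlier spots, which were left out (77 in intestine, 70 in stomach, 111 in esophagus), and spots well above background. No spot was saturated. All arrays were on 1 slide in 1 scan, so place on the slide and organ cannot be told apart.

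The authors' deposited log2 table (medians −3.47 in intestine, −3.17 in stomach, −2.97 in esophagus) matched log2 signal minus the 75th percentile, uncentred by gene, within 0.01 log2 units for 99.9%, 99.9% and 99.8% of probes after 1 constant per array. It served as an alternative.

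Here each spot's log2 processed signal was set relative to the 75th percentile of all spots other than controls, array by array, and averaged per probe. Accessions were named through a RefSeq table of GRCm38.p6: 24342 probes had 1 symbol and 16770 none. A gene with several probes is given by its brightest. Genes well above background on at least 1 of 2 arrays were compared. Where 1 array was dim, the difference is a bound against the higher of the probe's own signal and the lowest signal above background on that array (8.17 in intestine, 5.85 in stomach, 7.03 in esophagus), and where that bound was under 1-fold the gene was left out. No test was run. Summed levels add the scaled linear signals of a list's probes.

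Genes named are the 4 members, genes of 18 lists (169 genes, 160 with a named probe), the 5 nearest in organ pattern to each member, and overlapping or adjacent genes. A few list genes are counted but not reported by name here. Members and lists were chosen with earlier results of these data known. Tools were Python 3.11.15, pandas 2.3.3, R 4.3.3 and limma 3.58.1 (normexp on the deposited median intensity of spot and local background, offset 50).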

Additional observations from a re-analysis of the deposited data

How the results depend on the processing

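No paired analysis was possible because each organ had 1 array, and no replicate could be left out. The 12 differences of the 4 genes were recomputed 90 times in all, and 88 of these values were positive. The exceptions were the other Hand2 probe (−0.0036) and Mab21l1 under normexp (−0.096), both for intestine minus stomach. Keeping outlier spots and leaving out the floor for a dim array changed none of the 12 values. The deposited values differ from those used by about 1 constant per array, so they could hardly differ either. Since the genes were picked with their values in view, the count of positive values is no support. A value is called moved when it shifted by more than the spread between probes of 1 gene, or when its sign turned. Spike-in centring moved all 4 genes in both intestine comparisons, to 6.67, 1.05, 1.67 and 6.81 against stomach and 9.04, 2.91, 2.54 and 8.23 against esophagus, for Hand1, Hand2, Mab21l1 and Mab21l2. Median centring moved the same genes against esophagus, to 8.63, 2.50, 2.14 and 7.83 in the same order. Normexp moved Hand1 to 4.60, 5.30 and 0.70, Mab21l2 to 4.81, 5.37 and 0.56 and Mab21l1 to −0.096, 0.29 and 0.39, for intestine minus stomach, intestine minus esophagus and stomach minus esophagus. That setting changed the signal column, the background method and the offset together. The median over all genes shifted by 0.29, 0.49 and 0.20 under median centring and by 0.83 and 0.88 in the intestine comparisons under spike-in centring.

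Counts of genes at least 4-fold apart moved more. Higher and lower in intestine than in stomach, they were 198 and 178 as reported, 50 and 61 under normexp, 552 and 68 under spike-in centring, 306 and 289 without the filter on dim probes, and 686 and 1033 at 2-fold, and median centring left 115 lower. Against esophagus they were 253 and 535 as reported, 93 and 215 under normexp, 455 and 296 under median centring, 990 and 199 under spike-in centring and 1215 and 1666 at 2-fold, with 396 higher without the filter. For stomach against esophagus they were 94 and 217 as reported, 28 and 59 under normexp, 184 and 350 without the filter and 569 and 784 at 2-fold. The cause was not tested. Of the 5 genes nearest to Hand2, 1 stayed under quantile normalization and 0 under normexp, and for Mab21l1 none stayed under either. In stomach and esophagus the signals of Hand1, Mab21l1 and Mab21l2 were 1.34 to 6.79 times the lowest signal above background, which limits all of their folds.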
